A study of Rattus norvegicus with 4 samples.

Results

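Satellite glial cells wrap the cell bodies of sensory neurons in the dorsal root ganglia (DRG), and 7 genes by which they are commonly recognised were followed here in DRG of young rats treated with cisplatin, a platinum chemotherapy drug. The genes were Fabp7, Apoe, Glul, Slc1a3, Kcnj10, Gja1 and Gfap, taken by symbol from the 22293 protein-coding genes of the count table, and each matched 1 row. RNA-seq had been performed on 4 libraries from wild-type neonatal Wistar rats, 2 treated with vehicle (PBS) and 2 with cisplatin at 0.3 mg/kg, each library labelled as 1 rat. Injections were intraperitoneal on postnatal days 14 and 16 and lumbar DRG were collected on postnatal day 23, with 2 to 5 ganglia pooled per library. The labels place collection 16 days after treatment instead, and the difference could not be resolved. Rats of both sexes were used, and the sex of the rat behind each library was not given in the sources used here. The libraries hold whole ganglia, so neurons, Schwann cells, fibroblasts, vessels and immune cells were measured together with the satellite glia, and fewer cells of a type cannot be told apart from less RNA per cell.

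Satellite glia descend from the neural crest and form a thin sheath around each sensory neuron soma. They take up glutamate, buffer potassium released by the neuron, are joined to each other by gap junctions, and are known to respond to nerve injury and to chemotherapy in models of neuropathic pain. Among the genes followed, Fabp7 encodes a fatty acid-binding protein of glia, Apoe a lipid carrier secreted by glia and macrophages, Slc1a3 the glutamate transporter GLAST, Glul glutamine synthetase, Kcnj10 the inwardly rectifying potassium channel Kir4.1, Gja1 the gap junction protein connexin 43, and Gfap an intermediate filament protein of astrocytes that is associated with reactive satellite glia. Astrocytes of the central nervous system also express all of these genes.

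The sequence upstream of 3 of the 7 genes is shown because these 3 had the largest differences between groups in either direction: Kcnj10 and Gfap on the lower side in cisplatin-treated rats and Fabp7 on the higher side. Each is the 250 bases before the annotated start in RefSeq, build GRCr8, read 5′ to 3′ on the strand of the gene, with motif matches in capitals. The Kcnj10 window lies at chr13:87334260-87334509 on the plus strand, the Gfap window at chr10:88361662-88361911 on the minus strand and the Fabp7 window at chr20:37669356-37669605 on the plus strand.
Kcnj10: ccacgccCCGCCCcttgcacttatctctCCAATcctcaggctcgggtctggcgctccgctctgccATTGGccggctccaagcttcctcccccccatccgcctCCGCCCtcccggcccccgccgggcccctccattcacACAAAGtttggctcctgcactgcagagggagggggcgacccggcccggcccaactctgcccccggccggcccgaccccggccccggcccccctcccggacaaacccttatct
Gfap: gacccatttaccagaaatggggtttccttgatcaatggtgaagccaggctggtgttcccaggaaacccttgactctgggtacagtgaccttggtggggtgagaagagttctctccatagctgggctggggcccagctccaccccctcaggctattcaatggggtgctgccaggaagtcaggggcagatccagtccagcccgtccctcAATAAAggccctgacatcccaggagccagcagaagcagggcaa
Fabp7: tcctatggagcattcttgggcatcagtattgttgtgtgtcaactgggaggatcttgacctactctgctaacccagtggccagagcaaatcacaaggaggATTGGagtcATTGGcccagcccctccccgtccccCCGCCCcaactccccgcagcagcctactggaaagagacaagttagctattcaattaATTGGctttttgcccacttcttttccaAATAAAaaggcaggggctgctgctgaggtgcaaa

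Motifs were searched on both strands as the letters of the TATA box (TATAAA), a variant of it (AATAAA), the CCAAT box (CCAAT), the GC box (GGGCGG), a SOX-type motif (ACAAAG) and a STAT-type motif with any 3 bases in its middle (TTCNNNGAA). The Kcnj10 window was 72.4% G or C, a higher share than in 94.3% of the 33469 windows in the table, and held 20 CpG, 2 matches each to the CCAAT and GC boxes, and 1 to the SOX-type motif. The Gfap window was 57.6% G or C with 1 CpG and held a single match, to the TATA variant. The Fabp7 window was 51.6% G or C, close to the median of 51.2% over all windows, and held 3 matches to the CCAAT box, 1 to the GC box and 1 to the TATA variant. Of all windows, 34.0% held the CCAAT box, 30.5% the GC box, 19.5% the TATA variant, 16.3% the SOX-type motif, 12.9% the TATA box and 7.67% the STAT-type motif, so the matches are common ones and serve only as a description. All 7 genes had a window in the table, 12 windows in all, and none of the 12 held the TATA box or the STAT-type motif.

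Total counts ran from 21384801 to 25618417 per library. Before the genes are described, 2 differences between libraries that run across the groups have to be given. First, the library of vehicle-treated rat 1 held more RNA of 8 astrocyte and oligodendrocyte markers, and the source of that RNA was not tested. Their summed level was 120 CPM (counts scaled to a common library size) there against 10.01 to 12.6 in the other 3 libraries. All 8 markers were highest in that library, and the oligodendrocyte factor Olig2 had 56 counts there and 0 in each of the others. Second, both libraries numbered 2 held more Schwann cell RNA. The summed level of the myelin genes was 2.57 times as high in vehicle-treated rat 2 as in vehicle-treated rat 1, and 2.87 times as high in cisplatin-treated rat 2 as in cisplatin-treated rat 1, while the sum of the neuronal genes was 1.30 and 1.41 times as high in the libraries numbered 1. Their part in the results was not tested, and the fold changes of the 7 genes and the list medians are therefore also given without vehicle-treated rat 1.

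Across the 7 genes, no difference between cisplatin-treated and vehicle-treated rats passed the test. Levels were compared with edgeR's quasi-likelihood test over the 14719 protein-coding genes that passed a filter on low counts, as all 7 did, and a gene was called at a p under 0.05 after Benjamini-Hochberg adjustment together with a change of 1.5-fold or more. None of the 7 was called by edgeR or by DESeq2, where 0.00679% and 0.951% of all genes tested were (0.34% higher and 0.611% lower by DESeq2). With the p left unadjusted and the same fold required, edgeR marked 1 of the 7, Kcnj10 on the lower side, against a background of 8.12% (2.8% higher and 5.32% lower), and DESeq2 marked 2, Kcnj10 and Gfap, against 8.61%. Kcnj10 was also the one gene of the 7 with an unadjusted edgeR p under 0.05 at any fold, a mark that 9.57% of all genes carried. By fold alone, 2 of the 7 were lower by 1.5-fold or more and 0 higher, against 12.4% and 7.19% of all genes. Fitted differences were above 0 for 3 genes and below 0 for 4, with a median log2 fold change of −0.17 beside −0.01 over all genes tested. Simple non-overlap of the groups, with both cisplatin values on the same side of both vehicle values, was met by 1 of the 7, again Kcnj10, and by 41.8% of all genes tested (20.6% above and 21.2% below). With 2 libraries against 2, an exact permutation test of a single gene cannot give a two-sided p below 0.333.

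**Figure D1:**
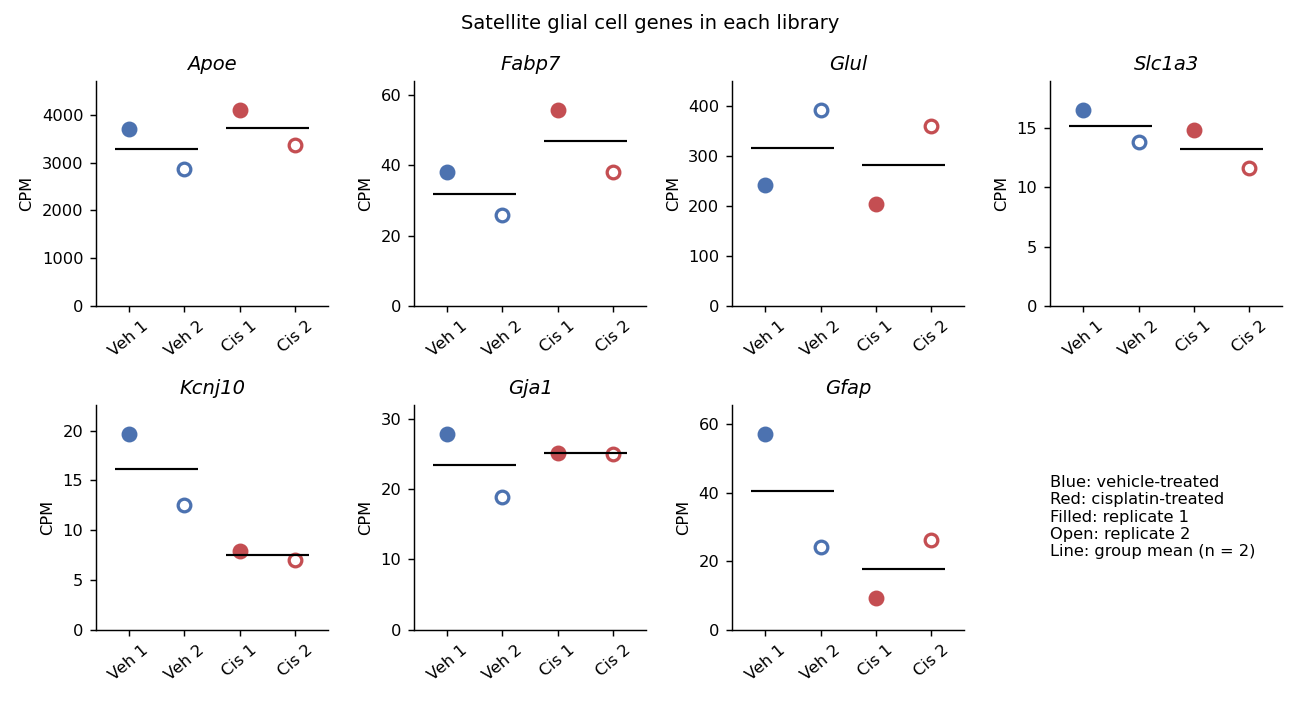
Level of each of the 7 satellite glial cell genes in the 4 libraries, in CPM on a linear axis, with 1 point per library and the group mean as a bar. Kcnj10 is the gene whose cisplatin values both lie below both vehicle values, and Gfap spans the widest range.

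Kcnj10 was the gene with the clearest separation between groups. The gene (ENSRNOG00000007705) lies at chr13:90723092-90752581 on the plus strand of Rnor_6.0, and its counts were 492 and 247 in the vehicle-treated rats and 201 and 165 in the cisplatin-treated rats. These counts correspond to 19.7 and 12.5 CPM against 7.91 and 7.01 CPM, or 16.1 ± 5.02 against 7.46 ± 0.635 CPM (mean ± SD, n = 2 per group). Vehicle-treated rat 1 was the highest of the 4, and on the CPM scale it stood further from vehicle-treated rat 2 than the latter stood from either cisplatin-treated rat. The fitted log2 fold change was −1.11 ± 0.30 (SE), a 2.16-fold lower level, with an unadjusted p of 0.0115 and an adjusted p of 0.509 by edgeR's quasi-likelihood test and of 0.153 by DESeq2. Over the alternatives that took the libraries as unpaired, the adjusted p ranged from 0.153 to 0.995. Without vehicle-treated rat 1 the log2 fold change was −0.74 ± 0.36 and the unadjusted edgeR p 0.0809. The remaining vehicle value still lay above both cisplatin values, a position shared by 38.9% of all genes tested.

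Gfap varied most among the 7 genes, and it varied within groups as much as between them. It lies at chr10:90990762-90999435 on the minus strand (ENSRNOG00000002919), and its counts were 1431 and 473 in the vehicle-treated rats and 232 and 618 in the cisplatin-treated rats. The corresponding levels were 57.2, 24.0, 9.13 and 26.3 CPM, a 6.26-fold span from the lowest library to the highest. Vehicle-treated rat 1, the library with the most RNA of the astrocyte and oligodendrocyte markers, was highest and cisplatin-treated rat 1 lowest. The libraries numbered 2 were nearly level with each other, and the groups overlapped. The log2 fold change was −1.20 ± 0.61, with an adjusted edgeR p of 0.560, and it was −0.43 with an adjusted p of 0.873 once vehicle-treated rat 1 was left out.

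The lipid-handling pair, Fabp7 and Apoe, had higher fitted levels after cisplatin, and neither passed the test. Fabp7 (ENSRNOG00000000814, chr20:40769586-40773349, plus strand) had 957 and 507 counts in the vehicle-treated rats and 1415 and 895 in the cisplatin-treated rats, that is 38.2 and 25.8 CPM against 55.7 and 38.0 CPM. Cisplatin-treated rat 1 was the highest and vehicle-treated rat 2 the lowest, while vehicle-treated rat 1 and cisplatin-treated rat 2 were level, so the groups overlapped narrowly. The log2 fold change of Fabp7 was 0.55 ± 0.29 with an adjusted edgeR p of 0.567, and 0.87 with an adjusted p of 0.824 and an unadjusted p of 0.0481 without vehicle-treated rat 1. Apoe (ENSRNOG00000018454, chr1:80612895-80617057, minus strand) was by far the most abundant of the 7, with 92962 and 56320 counts against 104144 and 79436 counts, or 3714 and 2861 CPM against 4099 and 3376 CPM. Within each treatment rat 1 held more Apoe than rat 2, and cisplatin-treated rat 2 lay between the vehicle-treated rats. For Apoe the log2 fold change was 0.19 ± 0.48 with an adjusted edgeR p of 0.911.

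The genes of the glutamate–glutamine route were close to level between groups. Glul (ENSRNOG00000049560, chr13:71331052-71340229, plus strand) had 6074 and 7711 counts in the vehicle-treated rats and 5198 and 8481 in the cisplatin-treated rats, or 243 and 392 CPM against 205 and 360.5 CPM. It was the one gene of the 7 that was higher in rat 2 of both groups, the libraries with more Schwann cell RNA. The log2 fold change of Glul was −0.17 ± 0.37 with an adjusted edgeR p of 0.897, and its sign turned when vehicle-treated rat 2 or cisplatin-treated rat 1 was left out. Slc1a3 (ENSRNOG00000016163, chr2:57860834-57935363, minus strand), the lowest of the 7 per length, had 413 and 272 counts against 378 and 274 counts, or 16.5 and 13.8 CPM against 14.9 and 11.6 CPM. The groups overlapped for Slc1a3 as well, at a log2 fold change of −0.19 ± 0.25 and an adjusted edgeR p of 0.810.

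Gja1, which encodes the main gap junction protein between satellite glia, had the smallest fitted difference of the 7. The gene (ENSRNOG00000000805) lies at chr20:37876650-37889089 on the plus strand and had 698 and 373 counts in the vehicle-treated rats and 639 and 590 in the cisplatin-treated rats, or 27.9 and 18.9 CPM against 25.2 and 25.1 CPM. The cisplatin-treated rats were nearly identical to each other and lay between the vehicle-treated rats. The log2 fold change was 0.10 ± 0.25 with an adjusted edgeR p of 0.908, and its sign turned when vehicle-treated rat 2 was left out.

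**Figure D2:**
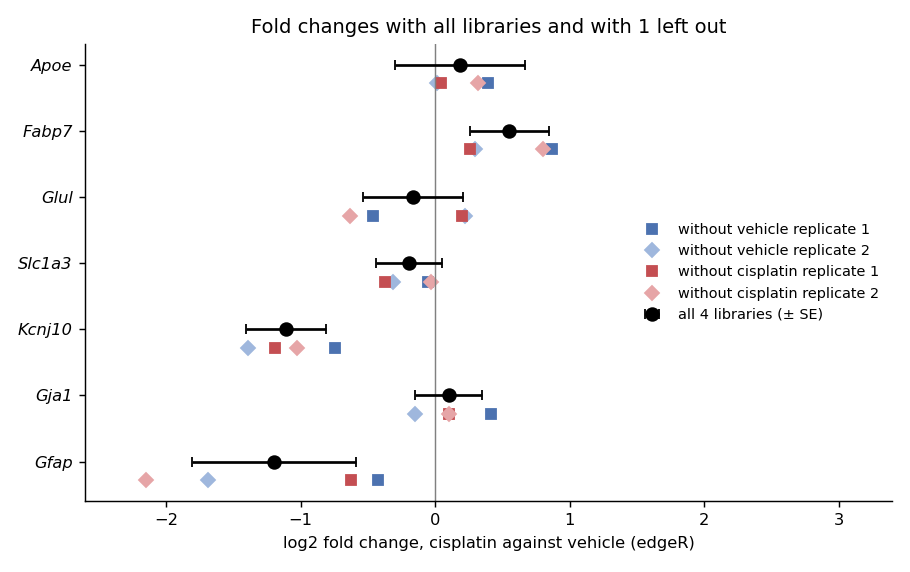
Log2 fold change of cisplatin against vehicle for each of the 7 genes, with its standard error as a bar, beside the values obtained when each library was left out in turn. Kcnj10 stayed below 0 in every such fit, from −1.39 to −0.74, whereas the values for Glul and Gja1 lay on both sides of 0 and those for Gfap ran from −2.15 to −0.43.

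The abundance of the 7 genes relative to each other was compared per length, on the deposited FPKM values. Apoe led with a mean of 2207 FPKM over the 4 libraries (1784 to 2578), followed by Glul with 118 (80.5 to 153), Fabp7 with 46.3 (30.0 to 65.4), Gfap with 10.6 (3.32 to 20.8), Kcnj10 with 8.10 (4.84 to 13.6), Gja1 with 7.58 (5.87 to 8.74) and Slc1a3 with 3.49 (2.86 to 4.06). The lipid carrier thus stood far above the membrane proteins, and the channel, the connexin and the transporter were the lowest. Of the neighbours in this order, Gfap and Kcnj10 overlapped in range, as did Kcnj10 and Gja1, and the other neighbours did not. Apoe alone held 85.5 to 92.8% of the summed CPM of the 7 genes, so that their sum is in effect a reading of Apoe.

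The 7 genes did not move as a block across the libraries. Fabp7, Apoe, Slc1a3, Kcnj10 and Gja1 were higher in rat 1 than in rat 2 of both groups. This order was shown by 34.2% of all genes tested. For Gja1 the cisplatin-treated rats were nearly level, at 25.2 and 25.1 CPM. Glul had the opposite order and Gfap was mixed. On centred log2 CPM, the root-mean-square difference between a pair of genes over the 4 libraries had a median of 0.60 and ran from 0.12, between Gja1 and Apoe, to 1.19, between Fabp7 and Gfap. Gja1 and Apoe kept almost the same ratio in every library, at 0.751 and 0.662 Gja1 counts per 100 Apoe counts in the vehicle-treated rats and 0.614 and 0.743 in the cisplatin-treated rats.

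Kcnj10 was also low relative to most of the other satellite glial genes, a comparison within each library that does not depend on library scaling. Per 100 Fabp7 counts there were 51.4 and 48.7 Kcnj10 counts in the vehicle-treated rats and 14.2 and 18.4 in the cisplatin-treated rats, a log2 difference of −1.63. Per 100 Gja1 counts the values were 70.5 and 66.2 against 31.5 and 27.97, a log2 difference of −1.20. In these ratios the vehicle-treated rats lay close to each other, and the differences without vehicle-treated rat 1 were −1.59 and −1.16. Kcnj10 counts per 100 Slc1a3 counts were 119 and 90.8 against 53.2 and 60.2, a log2 difference of −0.88, or −0.68 without vehicle-treated rat 1. Per 100 Apoe counts they were 0.529 and 0.439 against 0.193 and 0.208, a log2 difference of −1.27, or −1.13 without it. Relative to Glul, at 8.10 and 3.20 against 3.87 and 1.95 per 100 counts, and to Gfap, at 34.4 and 52.2 against 86.6 and 26.7, the groups overlapped. Of the 21 pairs among the 7 genes, 12 had ratios that did not overlap between groups, against 41.7% of all gene pairs, and 6 did so with a log2 difference of at least 1, against 13% of all pairs. Kcnj10 was in 6 of the 21 pairs and in 4 of the 12 without overlap, so most of the 12 did not include it. Each ratio of Kcnj10 also carries the difference of the other gene. The fitted log2 fold changes were above 0 for Fabp7 (0.55), Apoe (0.19) and Gja1 (0.10). They were below 0 for Glul (−0.17), Slc1a3 (−0.19) and Gfap (−1.20). The ratios of Kcnj10 were chosen after its levels had been seen and share its counts. All of these ratios are a description and were not tested.

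**Figure D3:**
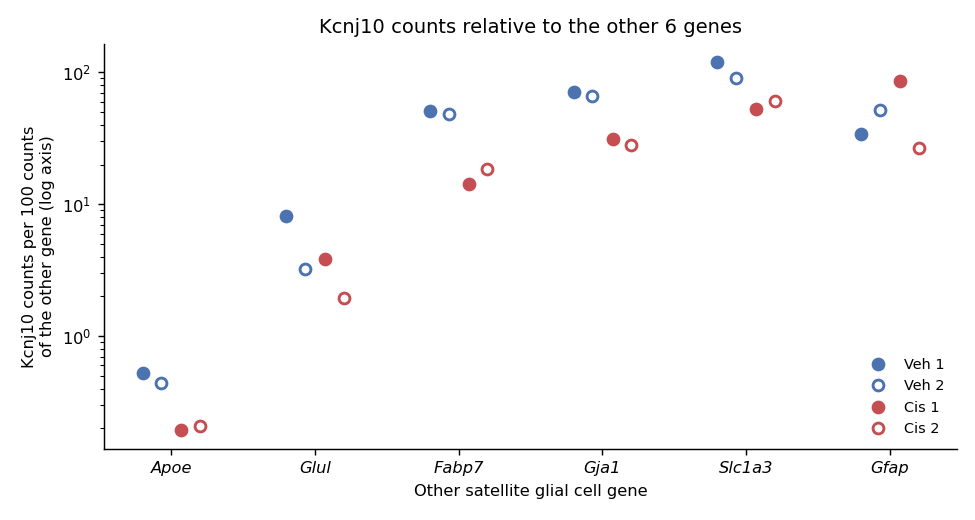
Kcnj10 counts per 100 counts of each of the other 6 satellite glial cell genes, on a log axis, with 1 point per library. Relative to Fabp7, Gja1, Slc1a3 and Apoe, both cisplatin-treated rats lie below both vehicle-treated rats, and relative to Glul and Gfap the groups overlap.

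To set the 7 genes among their functional partners, 8 lists of further genes of satellite glia were followed, 73 symbols of which 68 were tested. None was called by edgeR or DESeq2. With the p left unadjusted and 1.5-fold required, edgeR marked 5 of the 68, or 7.35% beside the background of 8.12%: Lcn2 and Scrg1 higher in cisplatin-treated rats, Lrp1, Slc38a1 and Mlc1 lower. Fitted differences were above 0 for 31 genes and below 0 for 37, the median log2 fold change was −0.03, and the groups did not overlap for 21 genes, or 30.9% beside 41.8% of all genes. The marked share lay near that over all genes, and the share without overlap lay below that over all genes. Neither was tested.

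Among genes of potassium, chloride and water handling, the partners of Kcnj10, 6 of 7 had fitted differences below 0, with a median log2 fold change of −0.75 and none called. The median was −0.14 without vehicle-treated rat 1 and −1.61 without cisplatin-treated rat 2, and the largest of the differences rested on vehicle-treated rat 1. Mlc1, which encodes a membrane protein of astrocyte end-feet, had 239 and 10 counts in the vehicle-treated rats and 13 and 10 in the cisplatin-treated rats, and its log2 fold change was −3.42 with all libraries and −0.11 without vehicle-treated rat 1. Aqp4, the astrocyte water channel, had 718 and 30 counts against 132 and 103 counts, so that in vehicle-treated rat 2 it was the lowest of all. Its fitted direction turned with that library, from −1.66 with all libraries to 1.66 without vehicle-treated rat 1 (unadjusted edgeR p 0.0156, adjusted p 0.824). Hepacam, a partner of Mlc1 in the cell membrane, had 36.2 and 67.8 CPM against 16.3 and 45.5 CPM, with overlapping groups. Unlike the values for Mlc1 and Aqp4, the log2 fold change of Hepacam was further below 0 without vehicle-treated rat 1, at −1.12 beside −0.75 with all libraries.

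In the glutamate and glutamine list, 2 of 7 genes had fitted differences above 0 and 5 below, with a median log2 fold change of −0.04 (0.005 without vehicle-treated rat 1 and −0.40 without cisplatin-treated rat 2) and none called. Slc38a1, a glutamine transporter, had 23.3 and 40.2 CPM in the vehicle-treated rats and 13.4 and 18.2 CPM in the cisplatin-treated rats, without overlap. Slc38a1 had a log2 fold change of −1.005 with an unadjusted edgeR p of 0.0252 and an adjusted p of 0.509, and it was −1.34 without vehicle-treated rat 1. Got1, the cytosolic aspartate aminotransferase, overlapped between groups at 192 and 146 against 245 and 173 CPM.

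Among lipid carriers and lipid transport, the partners of Fabp7 and Apoe, 6 of 10 genes had fitted differences above 0, with a median log2 fold change of 0.26 (0.12 without vehicle-treated rat 1) and none called. The fatty acid-binding proteins Fabp5 and Fabp3 had the same direction as Fabp7: Fabp5 had 193 and 222 CPM against 273 and 309 CPM (log2 fold change 0.49, adjusted edgeR p 0.519), and Fabp3 had 35.6 and 20.9 CPM against 57.3 and 38.3 CPM (0.76, adjusted edgeR p 0.532). Neither had overlapping groups, which 20.6% of all genes showed in this direction, and without vehicle-treated rat 1 the values were 0.40 for Fabp5 and 1.201 for Fabp3. Apod, a lipocalin of glia and fibroblasts, overlapped at 547 and 970 against 705 and 1248 CPM. Lrp1, a receptor for ApoE-bearing particles, had 229 and 279 CPM against 121 and 177 CPM, with a log2 fold change of −0.77, an unadjusted edgeR p of 0.0281 and an adjusted p of 0.509. Without vehicle-treated rat 1 the value for Lrp1 was −0.89.

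Among connexins, pannexins and junction scaffold genes, 6 of 10 had fitted differences above 0, with a median of 0.05 and none called. This median was 0.12 without vehicle-treated rat 1 and −0.23 without cisplatin-treated rat 2. Gjc3, a connexin of Schwann cells and satellite glia, had 485 and 508 counts in the vehicle-treated rats and 124 and 345 in the cisplatin-treated rats, with a log2 fold change of −1.21 and an adjusted edgeR p of 0.523, or −1.39 without vehicle-treated rat 1. Gjb1, the connexin of Schwann cell myelin, followed the myelin RNA of the libraries, with 44.7 and 106 CPM against 39.7 and 104 CPM.

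**Figure D4:**
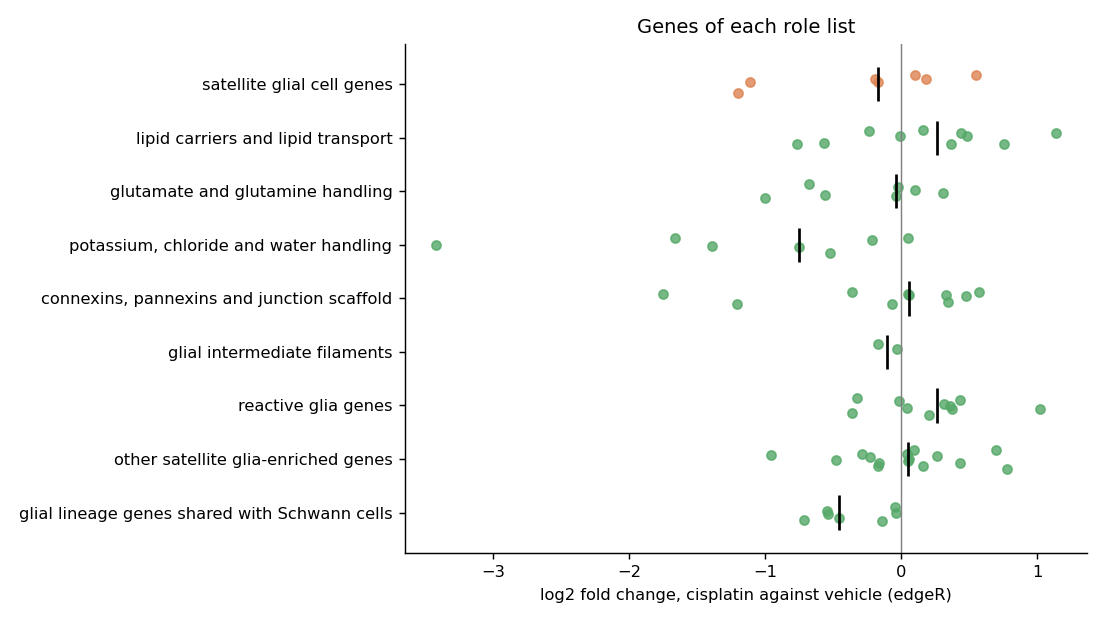
Log2 fold change of cisplatin against vehicle for the tested genes of each list of satellite glial partners, with 1 point per gene and the list median as a line. The potassium, chloride and water list has its median at −0.75 and the other medians lie between −0.46 and 0.26, but without vehicle-treated rat 1 that median was −0.14, inside the range of the others, which then ran from −0.64 to 0.23.

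Of the genes associated with reactive glia, 7 of 10 had fitted differences above 0, with a median of 0.26 (0.23 without vehicle-treated rat 1) and none called. Lcn2, a secreted lipocalin of reactive glia and neutrophils, had 116 counts in each vehicle-treated rat and 192 and 324 counts in the cisplatin-treated rats. Lcn2 had a log2 fold change of 1.02 with an unadjusted edgeR p of 0.0366 and an adjusted p of 0.509, and 0.87 without vehicle-treated rat 1. Hspb1, a small heat shock protein, had 261 and 237 CPM against 298 and 277 CPM, without overlap and with a log2 fold change of 0.21, or 0.29 without vehicle-treated rat 1. The other intermediate filament gene with a high level, Vim, was at 1819 and 3016 CPM against 1481 and 3249 CPM, with overlapping groups, and both tested genes of that list had fitted differences below 0, with a median of −0.10, or −0.03 without vehicle-treated rat 1.

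Of 15 other genes enriched in satellite glia, 9 had fitted differences above 0 and 6 below, with a median of 0.05 and none called. The sign of this median turned, to −0.15 without vehicle-treated rat 1 and to −0.27 without cisplatin-treated rat 2. Scrg1, a secreted glial protein, had 173 and 99 counts against 295 and 210 counts, a log2 fold change of 0.78, an unadjusted edgeR p of 0.0433 and an adjusted p of 0.516, and 1.04 without vehicle-treated rat 1. Cst3, the protease inhibitor cystatin C, had 815 and 1396 CPM against 1483 and 2111 CPM, without overlap and with an adjusted edgeR p of 0.601, and its log2 fold change went from 0.70 to 0.38 without vehicle-treated rat 1. The 7 lineage genes that satellite glia share with Schwann cells all had fitted differences below 0, with a median of −0.46 (−0.64 without vehicle-treated rat 1 and −0.06 without vehicle-treated rat 2 or without cisplatin-treated rat 1) and none called. Of these, S100b was at 1502 and 2652 CPM against 1470 and 2563 CPM, the same order as the myelin RNA.

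Markers of the other cells of the ganglion give the setting for these values. All 8 Schwann cell myelin genes had fitted differences below 0, with a median of −0.36, and all 10 neuronal genes above 0, with a median of 0.36, with none called in either list. The myelin median turned to 0.35 without vehicle-treated rat 2 and to 0.25 without cisplatin-treated rat 1, and was −0.84 without vehicle-treated rat 1, whereas the neuronal median stayed above 0, from 0.14 to 0.57, whichever library was left out. The summed myelin level ran from 60854 to 156275 CPM in the vehicle-treated rats and from 47787 to 137053 CPM in the cisplatin-treated rats, and the summed neuronal level from 25510 to 33098 and from 29316 to 41195 CPM, so both sums overlapped between groups. No myelin gene had groups that did not overlap, whereas 5 of the 10 neuronal genes had both cisplatin values above both vehicle values, as 20.6% of all genes did. Nefl, a neurofilament subunit, overlapped at 9321 and 6830.3 CPM against 10509 and 7529 CPM. Snap25, a synaptic vesicle fusion protein, did not overlap, at 626 and 582 CPM against 1188 and 703 CPM, and neither did Uchl1, a neuronal deubiquitinase, at 1767 and 1497 CPM against 3345 and 2203 CPM. Fabp7, Apoe, Slc1a3 and Kcnj10 were, like the neuronal sum, higher in rat 1 of both groups. Gja1 was higher in vehicle-treated rat 1 and nearly level between the cisplatin-treated rats. Glul was, like the myelin sum, higher in rat 2 of both groups.

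The 12 macrophage and leukocyte genes, which bear on Apoe, had a median log2 fold change of 0.07 (−0.14 without vehicle-treated rat 1) and a summed level of 76.3 to 93.1 CPM. Their directions were mixed, with 7 fitted differences above 0 and 5 below. The groups did not overlap for 4 genes on the higher side and 4 on the lower side, beside 20.6% and 21.2% of all genes tested. Of these, C1qc was at 8.11 and 9.09 CPM against 14.1 and 14.03 CPM and Cd68 at 1.56 and 1.83 CPM against 2.87 and 3.27 CPM, with adjusted edgeR p of 0.509 and 0.519 and log2 fold changes of 0.64 and 0.76 without vehicle-treated rat 1. On the lower side were Ptprc, Aif1, Adgre1 and Cd163, at log2 fold changes of −0.20, −0.32, −0.56 and −0.70. In the fibroblast and meningeal list, which also bears on Apod and Vim, 5 of 7 genes had fitted differences below 0, with a median of −0.68 (−0.89 without vehicle-treated rat 1 and −0.23 without cisplatin-treated rat 1). Col3a1, a fibrillar collagen chain, was at 3312 and 4781 CPM against 1622 and 3419.7 CPM, with overlapping groups. Col1a2, another such chain, was at 856 and 946 CPM against 199 and 401 CPM, with an adjusted p of 0.00779 by DESeq2 and 0.509 by edgeR, and its log2 fold change was −1.59, or −1.65 without vehicle-treated rat 1. The 4 endothelial and mural genes tested had a median of −0.37 (−0.55 without vehicle-treated rat 1) and a summed level of 125 to 220.3 CPM. The pericyte gene Rgs5 was at 25.7 and 30.3 CPM against 13.9 and 19.6 CPM (adjusted edgeR p 0.509). Cldn5 had 0 counts in all 4 libraries, whereas Cdh5 of the same list had 654 and 660 counts against 743 and 849 counts. Whether the counting could register Cldn5 was not tested, so its 0 counts are not read as absence.

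**Figure D5:**
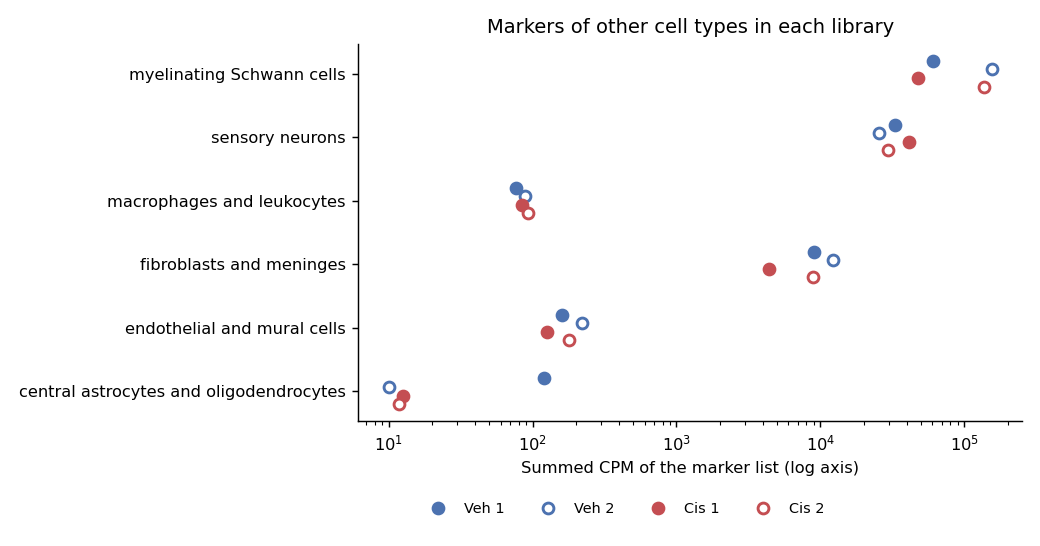
Summed CPM of the marker genes of each cell type in the 4 libraries, on a log axis. The central glial markers stand at 120 CPM in vehicle-treated rat 1 against 10.01 to 12.6 CPM elsewhere, and the myelin sum is higher in rat 2 than in rat 1 of both groups.

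The list of central glial markers was also followed, because astrocytes express the 7 genes too. All 5 tested markers of this list had fitted differences below 0, with a median log2 fold change of −3.42 (−0.11 without vehicle-treated rat 1). The remaining 3 of the 8 did not pass the filter on low counts, although they too were highest in vehicle-treated rat 1. Of the 8 markers, 3 (Aqp4, Slc1a2 and Mlc1) also stood in the lists of satellite glial partners. Mobp, an oligodendrocyte myelin gene, had 989 counts in vehicle-treated rat 1 and 43 in vehicle-treated rat 2, against 19 and 47 counts in the cisplatin-treated rats. For Mobp the log2 fold change was −3.93 with all libraries and −0.66 without vehicle-treated rat 1, and that of Olig1 went from −4.97 to −0.66. Mog, a protein of central myelin, had 366 and 98 counts against 135 and 104 counts. Kcnj10 and Gfap were both highest in vehicle-treated rat 1, and their log2 fold changes went from −1.11 to −0.74 and from −1.20 to −0.43 when it was left out. Glul, Gja1, Slc1a3, Fabp7 and Apoe went to −0.46, 0.41, −0.05, 0.87 and 0.39. Whether any of the 7 genes' RNA in that library came from central glia was not tested.

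For each of the 7 genes, the gene with the most similar profile was sought among the 9445 genes with a mean of at least 10 CPM, by the root-mean-square difference of centred log2 CPM over the 4 libraries. The nearest was ENSRNOG00000024461 for Fabp7 at 0.02, Zdhhc21 for Kcnj10 at 0.04, LOC684270 for Gja1 at 0.03, Afap1l2 for Glul at 0.008, Ric8b for Slc1a3 at 0.01 and Slc25a3 for Apoe at 0.02. The gene nearest to Gfap, LOC100909752, was 0.32 away, the farthest of these neighbours, and none of the nearest genes was another of the 7. Nearest to the mean profile of the 7 were Adck3, Ralgapa1 and Tmem2, at 0.03, 0.03 and 0.04. With 4 points a profile this close is a description only.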

How the data were processed

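Poly-A RNA from lumbar DRG of 2 vehicle-treated and 2 cisplatin-treated rats was sequenced as paired reads. Reads were aligned with HISAT2 to Ensembl Rnor_6.0 by the authors, who deposited raw counts per gene and FPKM values, the latter scaled by gene length and by a library constant that differed from the total count. The submitters' processing notes name HISAT2 2.0.5, StringTie 1.3.3b, featureCounts 1.5.0-p3, DESeq2 1.20.0 and edgeR 3.22.5. The strand setting of the counting was not given in the sources used here.

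Groups were taken from the labels. Protein-coding counts were filtered with edgeR's filterByExpr (14719 of 22293 genes), scaled by TMM (factors 0.938 to 1.10) and tested by quasi-likelihood in edgeR 4.0.16 (glmQLFit, then glmQLFTest; R 4.3.3), unblocked. The p-values were adjusted over all genes tested, and calls needed 0.05 for the adjusted p and a 1.5-fold change. DESeq2 1.42.0 and limma 3.58.1, on log2(FPKM + 1) and log2(FPKM + 0.1), were alternatives; on these FPKM scales changes of low genes are understated. A prior count of 2 entered log2 CPM. The smallest level, 3 counts, was 0.118 to 0.152 CPM; it covers counting error only, because PCR copies were not told apart by molecular identifiers. No 2 libraries agreed within sampling noise.

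The genes, lists and tests were chosen with earlier results of these data known. Within each list, genes were named by a fixed rule, the most abundant gene by FPKM and up to 3 with an unadjusted p under 0.05 and the fold change or called by DESeq2. Fabp5, Fabp3, Gjc3, Aqp4, Hepacam, Olig2, Cldn5, Cdh5, Snap25, Uchl1, Ptprc, Aif1, Adgre1 and Cd163 were chosen after their values were seen, as were the ratios of Kcnj10 to other genes. The list symbols Nes, Serpina3n, Foxd3 and Pecam1 were not analysed here, and a few genes of the lists are left unreported.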

Additional observations from a re-analysis of the deposited data

How the results depend on the processing

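Over all genes tested, 0 were called higher and 1 lower. Higher and lower calls were 50 and 90 with DESeq2, 2 and 2 with limma on log2(FPKM + 1), and higher calls were 1 without the filter, 1 with at least 10 counts in every library and 1 with limma on log2(FPKM + 0.1). Leaving out 1 library at a time gave 0 to 4 higher and 0 to 4 lower calls, and 0 of the 7 genes called throughout.

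Libraries of the same number share only the rat number in their titles, and the library names number the cisplatin-treated rats differently. Libraries of the same number are different rats, and no shared litter or day is given. Their deviations from the group means correlated across genes (r = 0.444, Spearman's rho 0.567, over genes, which are not independent replicates). With the replicate block, edgeR called 529 genes higher and 1136 lower (11.3% of genes), with the block and a gene-length correction 425 and 694, and DESeq2 with the block, added after seeing the data, 375 and 704. Each of these 3 fits called 1 of the 7 genes, Kcnj10, at log2 fold changes of −1.09, −1.15 and −1.08 and adjusted p of 0.00529, 0.00725 and 0.00871. Fabp7 had an adjusted p of 0.0139 with the edgeR block at 0.55, below the fold change required.

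The log2 fold change of Glul turned to 0.22 without vehicle-treated rat 2 and to 0.20 without cisplatin-treated rat 1, and that of Gja1 to −0.15 without vehicle-treated rat 2. Relative to Gfap, also added after seeing the data, that of Kcnj10 was 0.18. The cause was not tested. Over leaving out each library, the log2 fold change ranged from −1.39 to −0.74 for Kcnj10, 0.26 to 0.87 for Fabp7, 0.01 to 0.39 for Apoe, −0.63 to 0.22 for Glul, −0.15 to 0.41 for Gja1, −0.37 to −0.03 for Slc1a3 and −2.15 to −0.43 for Gfap. The lowest count of the 7 genes in any library was 165, well above the floor of 3 counts.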
